A study of Mus musculus with 59 samples.

Results

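A set of 110 mRNAs of mouse embryonic stem cells (ESCs) was examined, those whose normalised read count stood higher in control cells after 8 h in Actinomycin D than before the drug. A gene was a member when both control libraries at 8 h exceeded both control libraries at 0 h and its mean over 12 libraries was at least 10. Of 23974 gene symbols in the table, 6952 reached that mean, 120 of these met the control criterion, and 110 were left after exclusions. The exclusions by symbol took out Col5a2, Col11a1, Col16a1, Efemp1, Qsox1 and Lgals3bp, and a further 4 genes known only from non-coding RefSeq entries were left out. Members were thus selected on the control values at 0 h and 8 h, so the excess at 8 h in control is a description and carries no test.

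The study is about Zcchc8, and the libraries used here are 12 of the 59 samples of the series. The cells were Zcchc8 knockout (KO) ESCs and wild-type control ESCs, both derived from blastocysts of the BDF1 strain and cultured in serum medium with LIF, CHIR99021 and PD0325901. Both genotypes received Actinomycin D at 5 µg/ml for 0, 4 or 8 h, with 2 libraries per genotype and time, and every library had ERCC spike-in RNA added. Spike-in values were not used here, so neither scale below could be tied to RNA per cell. Total RNA was depleted of ribosomal RNA and sequenced. The labels do not state how many KO clones were used or whether replicates were separate cultures, and a p-value then covers only variation between libraries, possibly of technical origin.

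Actinomycin D intercalates into DNA and stops RNA synthesis, so that after its addition a transcript can only persist or decay. A normalised read count here is a read count over a factor of its library, and the labels do not give what set that factor. The values of a library summed to 360228 and 444781 at 8 h and 822410 and 1503070 at 0 h in control, so they are not shares of a fixed total. Zcchc8 is the scaffold protein of NEXT, a nuclear complex that delivers RNAs to the exosome for decay.

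The table held between 465324 and 1364523 reads per library, and the deposited value of 1 read ranged from 0.452 to 3.23. The control library 0 h replicate 2 was the shallowest, and in it the median member rested on 2 reads, with 6 reads in control 0 h replicate 1. In all, 71 of the 110 members had under 10 reads in both control 0 h libraries. Zcchc8 itself read 25.3 and 5.29 at 0 h, 21.3 and 13.6 at 4 h and 9.56 and 3.78 at 8 h in KO cells, against 59.3 and 77.5 at 0 h, 32.7 and 24.7 at 4 h and 7.57 and 11.3 at 8 h in control cells, so that its values were lower in KO at 0 h and 4 h and overlapped at 8 h. Of the ESC markers, Pou5f1 had 258 and 303 in KO and 186 and 294 in control at 0 h. Sox2, Tdgf1, Utf1, Dppa5a, Lin28a and Sall4 were also detected, while Nanog and Esrrb were at or near 0. Nanog has 4 transcripts in the table and Esrrb 2, while Pou5f1 has 2 and Sall4 3. An effect of transcript number on the values was not tested, so a value near 0 need not mean that a gene was silent. Among members, 102 of 110 had a single transcript in the table. Over all genes tested, the median change from 0 h to 8 h was -1.15 in KO and -1.33 in control on the log2(value + 1) scale of the deposited values. A second scaling, TMM on the recovered reads, sets these medians to 0.00 in KO and 0.02 in control. A change or call under TMM is therefore relative to the typical gene, and a positive one need not be a rise in RNA. In KO, 69 of the 110 members had a negative change on the deposited scale and a positive one under TMM.

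By what their products do, 18 of the 110 members encode secreted or matrix proteins and 15 encode receptors or other plasma membrane proteins. Another 13 encode proteins of the endoplasmic reticulum (ER), Golgi and lysosome, 11 mitochondrial proteins, 8 actins, myosins and actin regulators, 5 proteins of microtubules, centrosomes and cilia, and 4 annexins or S100 proteins. A further 16 encode cytosolic or nuclear signalling, ubiquitin and metabolic enzymes, and for 20 no role is given here. These roles were assigned by hand once the members were known. Among gene lists, 3 of the 35 tested actin cytoskeleton genes were members (Acta2, Anxa1 and S100a11). So were 2 of the 39 tested matrix and secreted glycoproteins other than collagens (Igfbp3 and Htra1) and 1 of the 18 tested fibroblast markers (Acta2). These shares were 8.57%, 5.13% and 5.56%, beside 1.58% of all genes tested. They were the highest of the lists and rest on 3, 2 and 1 members. The lists were drawn up with earlier results of these data known, so the shares are a description. The lists of Golgi glycosyltransferases, membrane transporters and antioxidant enzymes each held 1 member (Pofut1, Atp6v0e and Prdx3). No member stood among the 22 tested immediate early and short-lived transcripts, the 12 pluripotency factors or the 35 lysosomal proteins. Nor did any stand among the 35 ER folding proteins or the 27 translation factors. At a share of 1.58%, lists of these sizes would hold few members if any, so these absences show little. For short-lived transcripts the rule itself, which asks for a higher value at 8 h, works against membership.

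Transcript sequence was compared with all tested genes, because AU-rich elements of the 3′ untranslated region are known to speed mRNA decay. The octamer TATTTATT was read on the sense strand and holds the pentamer ATTTA. It occurred in the 3′ untranslated region of 12 of 108 members with such a region (11.1%), against 15.1% of tested genes. The median number of ATTTA pentamers was 2 in members and 1 in all tested genes. Pentamers were counted without overlap, so copies that share a base with the one before were missed. The first site in each of 6 members is shown in its context, with that octamer in capitals, from GENCODE M21 transcripts (GRCm38), 5′ to 3′. These sites lie on chromosomes 13 (F2r), 9 (Myo5a), 5 (Flt1), 1 (Ptgs2), 10 (Fstl3) and 15 (Ndrg1). The Ptgs2 stretch holds a further, overlapping octamer that is not marked.
F2r: aaattacacacTATTTATTtacaaatgttt
Myo5a: tgcagtacattTATTTATTtgcaggaccta
Flt1: gtatcagcccaTATTTATTaagcactttat
Ptgs2: tctactgaccaTATTTATTtatttatgtga
Fstl3: catcccgatttTATTTATTgttatagaaaa
Ndrg1: taagatgtttgTATTTATTtccagaccaat
Here F2r encodes the thrombin receptor, Myo5a an actin-based motor, Flt1 a VEGF receptor, Ptgs2 the inducible cyclooxygenase, Fstl3 an activin-binding protein and Ndrg1 a stress-responsive protein. The Ptgs2 region held 13 non-overlapping copies of ATTTA and that of Myo5a held 12. A match is a description of the letters and says nothing of binding. Median transcript length was 3080.5 bases in members and 2914 in all tested genes, and the median 3′ untranslated region was 1185 bases in members and 999 in all tested genes. Median GC content was 50.1% in members against 51.1%, and the median number of exons was 8 against 9. Exons on the opposite strand overlapped 5 members (4.55%), against 19.6% of tested genes, and Fstl3, Haus1 and Slc48a1 are among them. Whether counting used the strand is not stated in the labels, so the values of such genes may hold reads of their partners.

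In control, the 8 h mean of the members was a median of 1.97 times the 0 h mean, over 107 members with a nonzero 0 h mean. Values are not divided by transcript length, so an order of genes by value is not an order of molecule number. The highest value belonged to Acta2, smooth muscle alpha-actin, with 1079.6 and 906 at 0 h, 1157 and 1322 at 4 h and 950.4 and 885 at 8 h in KO cells, against 313 and 475 at 0 h, 494 and 684 at 4 h and 494 and 559 at 8 h in control cells. All 6 KO libraries lay above all 6 control libraries. Counting may also split reads between Acta2, the member Actg2 and other actin genes, whose coding sequences are near-identical. Among the 21 members with a mean of at least 50, the highest 8 h over 0 h ratio of control means was 2.30 for Prelp, a small leucine-rich proteoglycan of the matrix, and the lowest was 1.22 for Laptm4a, a lysosomal membrane protein. The control 4 h mean exceeded the control 8 h mean in 71 members. On the log2 scale the control change from 4 h to 8 h was positive in 38 members, beside 8.7% of all tested genes, so members fell less often than genes at large. In 84 members both control 4 h libraries exceeded both control 0 h libraries, beside 5.38% of all tested genes. All of these counts use the libraries that chose the members.

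At the edge of the rule the excess was small. Lats1, a kinase of the Hippo pathway, had 11.9 and 14.9 at 8 h and 11.9 and 9.69 at 0 h in control. Bbs2, a subunit of the ciliary BBSome complex, had 3.24 and 4.52 at 8 h and 0 and 3.23 at 0 h. Gm960 had 3.24 and 16.7 at 8 h and 0 and 3.23 at 0 h. Just outside lay Nupr1, a stress-induced nuclear protein, with 78.4 and 75.4 at 8 h and 76.4 and 77.5 at 0 h in control. So did Myl9, a myosin light chain, with 105 and 119.7 at 8 h and 61.9 and 109.8 at 0 h. Rab1b, a GTPase of ER to Golgi transport, had 67.0 and 84.9 at 8 h and 63.2 and 71.1 at 0 h. For the minimum mean, Tmem252 was inside at 10.04 and Sept3 outside at 9.92. The KO libraries counted in that mean, and 36 of the 110 had a mean below 10 over the 6 control libraries and so passed through KO. For these 36, a KO value below KO 0 h or above control is favoured by the choice of members. Counts over members are therefore a description, and the medians are also given for the 74 members with a control mean of at least 10, a split chosen after seeing the data. With 1 control library left out of the rule, it chose 334 genes without 0 h replicate 1, 591 without 0 h replicate 2, 268 without 8 h replicate 1 and 156 without 8 h replicate 2.

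**Figure D1:**
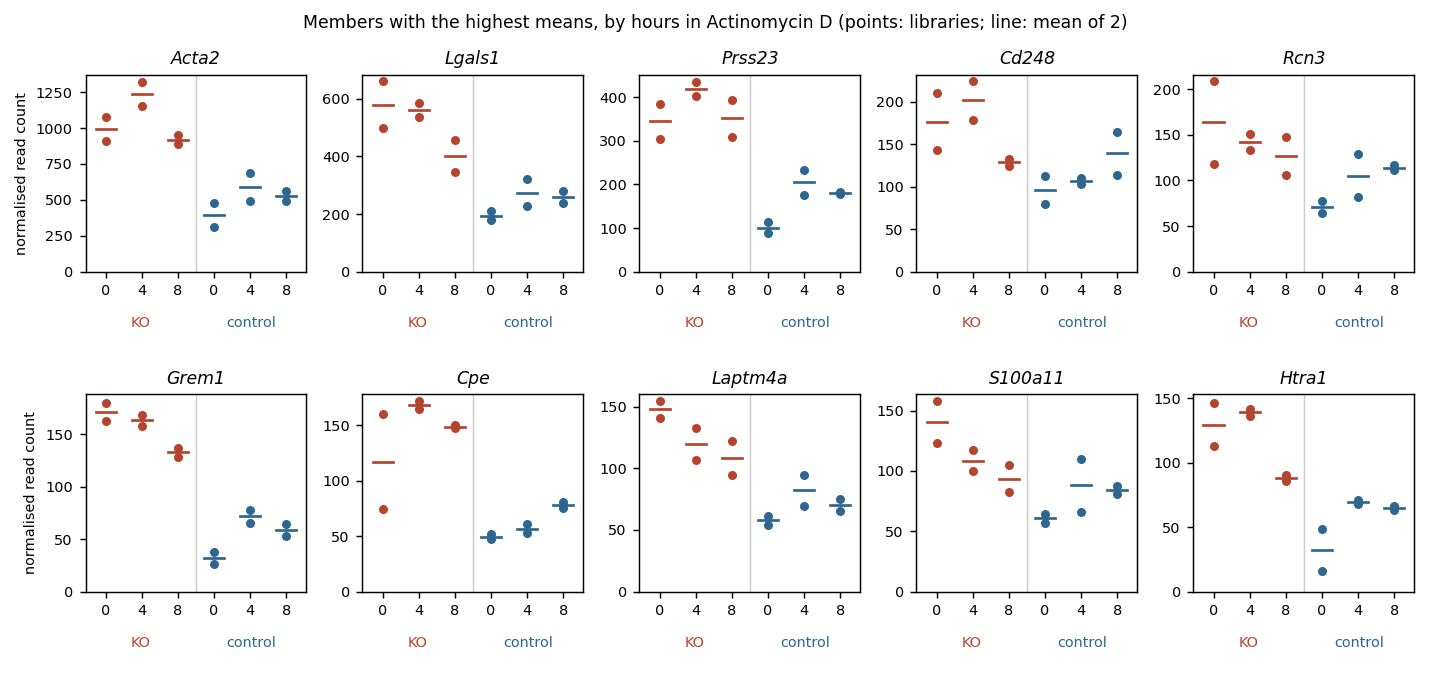
Normalised read count of the 10 members with the highest mean, in KO (left) and control (right) at 0, 4 and 8 h in Actinomycin D; points are libraries and lines the mean of 2. In control both 8 h points lie above both 0 h points by the rule, while Lgals1, Cd248, Grem1, Laptm4a, S100a11 and Htra1 in KO have both 8 h points below both 0 h points on this scale, where their changes under TMM are positive.

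Whether KO cells showed the same increase was tested in libraries that entered the rule only through the mean over 12 libraries, KO at 8 h against KO at 0 h. On the deposited scale 1 of the 110 members was called higher (A430033K04Rik), where 0.0575% of all tested genes were, and 10 were called lower, where 40.5% of all tested genes were. Of these 10, 4 (Mtx2, Fjx1, Bbs2 and Tmsb10) belonged to the 36 with a control mean below 10, and they are given without a p-value. The median change of the members was -0.55 (log2), against -1.15 for all tested genes, and 88 of 110 members lay above that median. After TMM scaling, 6 members were called higher (Acta2, Prss23, Cpe, A430033K04Rik, Twsg1 and Igfbp3) beside 5.49% of all tested genes, and 0 were called lower beside 6.17%. At an unadjusted p below 0.05 under TMM, 27 members were higher and 2 were lower, with no share over all tested genes counted. On the recovered reads edgeR with TMM called 8 members higher, beside 6.1% of all tested genes, and 0 lower, beside 6.31%. DESeq2 called 10 higher, beside 5.58%, and 0 lower, beside 6.6%. Acadsb, called higher by both, and Fbxo36, called by DESeq2, belonged to the 36 with a control mean below 10. The member median under limma with TMM was 0.57, against 0.00 for all tested genes. The direction of the median in KO thus depended on the scaling, and under TMM it is a direction relative to the typical gene. Among the 74 members with a control mean of at least 10 the median was -0.49 on the deposited scale, against -1.11 for all tested genes with such a mean, and 0.64 against 0.03 under TMM. Among the other 36 it was -0.82 and 0.25. On the rule's own criterion, both KO 8 h libraries exceeded both KO 0 h libraries in 7 members (Igfbp3, Twsg1, A430033K04Rik, Fstl3, Lactb, Acadsb and Fbxo36), beside 0.806% of all tested genes. Of these 7, Acadsb and Fbxo36 belonged to the 36 that passed through KO. Among the 74 the count was 5 (6.76%), beside 0.765% of tested genes with a control mean of at least 10. In 50 members both KO 8 h libraries lay below both KO 0 h libraries, beside 78.0% of all tested genes, and in 53 members the groups overlapped. Under TMM scaling the same counts were 42 members above, beside 25.1% of all tested genes, and 5 below, beside 27.3%. Under TMM the control criterion itself was met by 30.3% of tested genes, and the whole rule chose 1857 genes, all 110 members among them, so membership depends on the scale. Single libraries also decided counts on the deposited scale. The 10 members called lower became 4 without either KO 0 h library and 20 without either control 0 h library, whose spread enters the shared error. They became 6 when KO 8 h replicate 1 was left out and 5 when replicate 2 was. The share of members with both KO 8 h libraries above KO 0 h, 6.36% as counted, was 20.9% when KO 0 h replicate 1 was left out and 11.8% when the other KO 0 h library was. It was 10.9% when KO 8 h replicate 1 was left out and 10.0% when the other was, each a looser criterion.

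**Figure D2:**
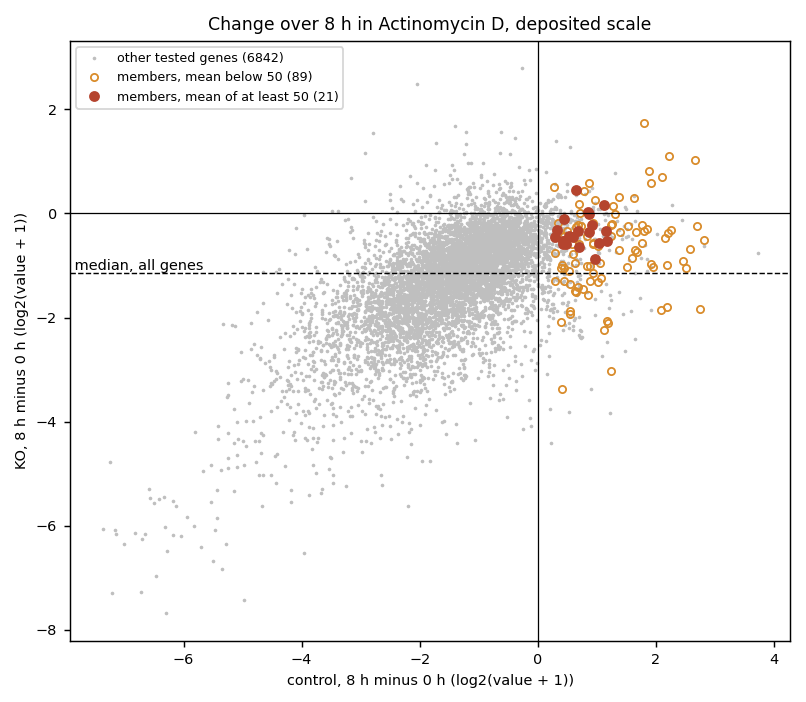
Change from 0 h to 8 h in KO (vertical) against control (horizontal), both as differences of mean log2(value + 1) on the deposited scale; grey points are the other tested genes and circles the 110 members. Members lie right of 0 by the rule, and 88 of 110 lie above the dashed line at the median of all genes, -1.15, but 18 lie above 0.

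**Figure D3:**
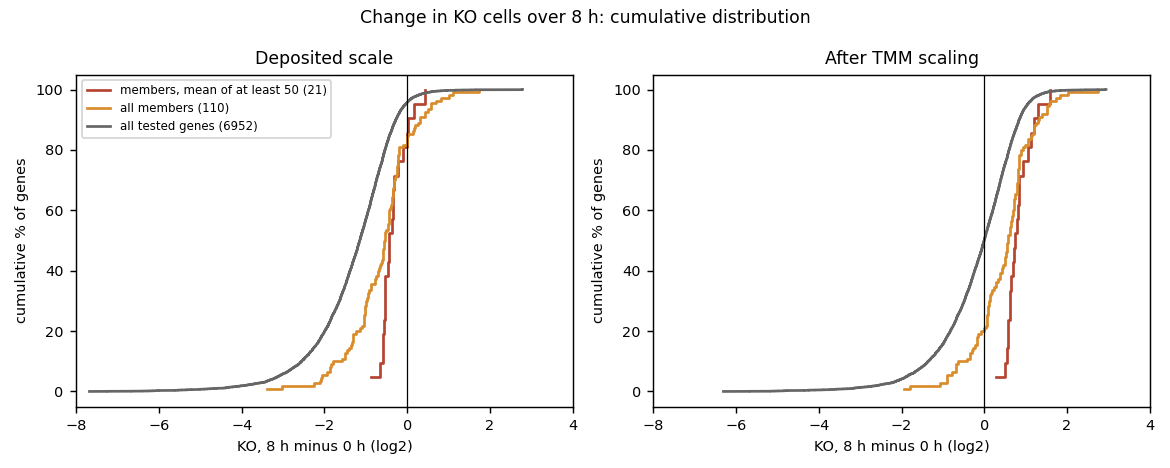
Cumulative percent of genes by their KO change from 0 h to 8 h (log2), on the deposited scale (left) and after TMM scaling (right), for 21 members with a mean of at least 50, all 110 members and all 6952 tested genes. The member curves lie right of the curve of all genes on both scales, with medians of -0.55 against -1.15 on the deposited scale and 0.57 against 0.00 under TMM.

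Among secreted and matrix proteins, 17 of 18 members lay above the KO median of all genes, 0 were called higher and 1 was called lower, with a group median of -0.35 and members between -1.93 and 0.70. Prss23, a secreted serine protease, had 386 and 305 at 0 h, 402 and 435 at 4 h and 309.8 and 393 at 8 h in KO cells, against 88.2 and 113 at 0 h, 177 and 233 at 4 h and 178 and 182 at 8 h in control cells. In KO its 0 h and 8 h values overlapped, and all KO values lay above all control values. The KO change from 0 h to 8 h was 0.02 (SE 0.37, limma adjusted p = 0.96) on the deposited scale and 1.19 (limma adjusted p = 0.00227) under TMM. Igfbp3, a carrier of insulin-like growth factors, had 82.5 and 74.1 at 0 h, 103 and 96.9 at 4 h and 86.7 and 88.2 at 8 h in KO cells, against 36.9 and 19.4 at 0 h, 37.1 and 68.7 at 4 h and 56.2 and 63.2 at 8 h in control cells. Both KO 8 h values were above both KO 0 h values, by a change of 0.16 (SE 0.45, limma adjusted p = 0.767) on the deposited scale and 1.30 (limma adjusted p = 0.0377) under TMM. Cpe, the carboxypeptidase that trims prohormones, had 160.0 and 74.1 at 0 h, 164 and 171 at 4 h and 147 and 149.9 at 8 h in KO cells, against 47.4 and 51.7 at 0 h, 52.4 and 61.0 at 4 h and 75.7 and 80.9 at 8 h in control cells. Its KO 0 h libraries differed from each other by more than the 8 h libraries did, the groups overlapped, and the KO change was 0.44 (SE 0.41, limma adjusted p = 0.362) and under TMM 1.59 (limma adjusted p = 0.00322).

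Galectin-1 (Lgals1), a secreted lectin, had 660.2 and 499 at 0 h, 537 and 584 at 4 h and 457 and 346 at 8 h in KO cells, against 178 and 210.0 at 0 h, 228 and 321 at 4 h and 240.0 and 279.6 at 8 h in control cells. All KO values exceeded all control values, and both KO 8 h values were below both KO 0 h values, with a change of -0.53 (SE 0.37, limma adjusted p = 0.23). Htra1, a secreted serine protease, had 147 and 113 at 0 h, 142 and 137 at 4 h and 86.1 and 90.7 at 8 h in KO cells, against 48.7 and 16.2 at 0 h, 67.7 and 71.1 at 4 h and 63.2 and 66.4 at 8 h in control cells. Its KO change was -0.54 (SE 0.44, limma adjusted p = 0.304), where control differed by 1.17. Prelp had 80.8 and 74.1 at 0 h, 71.2 and 70.7 at 4 h and 56.1 and 66.7 at 8 h in KO cells, against 19.8 and 16.2 at 0 h, 18.9 and 44.8 at 4 h and 37.3 and 45.2 at 8 h in control cells, with a KO change of -0.33 (SE 0.48, limma adjusted p = 0.556). The KO groups of Htra1 and of Prelp did not overlap between 0 h and 8 h, 8 h being the lower. Under TMM the KO changes were positive, 0.64 for Lgals1, 0.62 for Htra1 and 0.81 for Prelp, with limma adjusted p between 0.0806 and 0.397.

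Antagonists and binders of BMP and activin ligands formed a subgroup of the secreted members, picked out after their values were seen. Grem1, a secreted BMP antagonist, had 180.2 and 162 at 0 h, 158 and 169 at 4 h and 129 and 137 at 8 h in KO cells, against 38.2 and 25.8 at 0 h, 65.5 and 78.0 at 4 h and 53 and 64.1 at 8 h in control cells. All its KO values stood above all control values, and its KO change was -0.36 (SE 0.40, limma adjusted p = 0.449), and under TMM 0.80 (limma adjusted p = 0.114). Twsg1, a BMP-binding protein, had 30.3 and 40.6 at 0 h, 55.5 and 63.0 at 4 h and 54.2 and 41.6 at 8 h in KO cells, against 15.8 and 19.4 at 0 h, 32.0 and 44.8 at 4 h and 31.3 and 30.3 at 8 h in control cells. Both KO 8 h values exceeded both KO 0 h values, with a change of 0.43 (SE 0.49, limma adjusted p = 0.465) and under TMM 1.52 (limma adjusted p = 0.0128). For Nbl1, another BMP antagonist, the KO change was 0.30 (SE 0.59, limma adjusted p = 0.671) with overlapping groups. Fstl3 had 29.3 and 27.7 at 8 h and 18.5 and 15.9 at 0 h in KO, with no overlap and a change of 0.70 (SE 0.78, limma adjusted p = 0.446). Fjx1, a secreted protein related to Drosophila four-jointed, was the secreted member called lower, with 8.29 and 8.82 at 8 h and 35.4 and 35.3 at 0 h in KO and a change of -1.93 (SE 0.78). Under TMM its change was -0.77. Its control mean was 5.70, so it passed the minimum through KO, where 0 h was highest. The other secreted members, none called in this comparison, were the growth factor Igf2, the protease inhibitor A2m, the anticoagulant protein S (Pros1), the proteases Plau and Adamts12, the peptide-amidating enzyme Pam, and Epdr1.

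Of the 15 surface proteins 12 lay above the KO median of all genes, with 0 called higher and 2 called lower, and the group median was -0.33 and members between -2.10 and 0.59. Cd248, the transmembrane glycoprotein endosialin, had 211 and 143 at 0 h, 179 and 225 at 4 h and 133 and 125 at 8 h in KO cells, against 79.0 and 113 at 0 h, 103 and 110.5 at 4 h and 113 and 165 at 8 h in control cells. At 0 h and 8 h the KO values did not overlap, 8 h being lower, and the change was -0.43 (SE 0.39, limma adjusted p = 0.356). Cspg4, the NG2 proteoglycan, had 180.2 and 101 at 0 h, 123 and 122 at 4 h and 91.8 and 79.3 at 8 h in KO cells, against 30.3 and 45.2 at 0 h, 58.2 and 76.5 at 4 h and 57.3 and 64.6 at 8 h in control cells. Its KO change was -0.65 (SE 0.42, limma adjusted p = 0.197), and both KO 8 h values lay below both KO 0 h values. F2r had 69.1 and 70.5 at 0 h, 80.7 and 84.3 at 4 h and 69.5 and 30.2 at 8 h in KO cells, against 38.2 and 32.3 at 0 h, 61.8 and 61.8 at 4 h and 40.5 and 55.6 at 8 h in control cells, with 1 of its KO 8 h values below and the other between the KO 0 h values, and a change of -0.59 (SE 0.46, limma adjusted p = 0.274). Flt1 was called lower, with 24.9 and 5.04 at 8 h and 50.5 and 54.7 at 0 h in KO, a change of -2.10 (SE 0.65, limma adjusted p = 0.0109). Prtg, an immunoglobulin superfamily protein, was also called lower, with 5.74 and 7.56 at 8 h and 35.4 and 26.4 at 0 h, a change of -2.06 (SE 0.73, limma adjusted p = 0.0247). Under TMM the changes were -0.91 (limma adjusted p = 0.348) for Flt1 and -0.90 (limma adjusted p = 0.342) for Prtg. Under TMM the KO changes were positive, 0.73 for Cd248, 0.51 for Cspg4 and 0.55 for F2r, with limma adjusted p between 0.0662 and 0.399. The remaining surface members, none called in this comparison, were the anthrax toxin receptor Antxr1, the calcium channel Orai2, the peptidases Anpep and Mmp17, the cytokine receptor chain Il3ra, the orphan receptor Gpr153, Stom, Cmtm6, Thsd7a and Scarf2.

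In the secretory pathway 10 of 13 members lay above the KO median of all genes, and 2 were called lower, with a group median of -0.45 and members between -2.09 and -0.01. Rcn3, a calcium-binding protein of the ER lumen, had 209 and 118 at 0 h, 151 and 134 at 4 h and 147 and 106 at 8 h in KO cells, against 64.5 and 77.5 at 0 h, 81.5 and 129 at 4 h and 117 and 111 at 8 h in control cells. Its KO groups overlapped, and its change was -0.33 (SE 0.41, limma adjusted p = 0.492). Laptm4a had 155 and 141 at 0 h, 107 and 133 at 4 h and 95.0 and 122 at 8 h in KO cells, against 54.0 and 61.4 at 0 h, 69.1 and 95.0 at 4 h and 65.4 and 75.4 at 8 h in control cells. Both KO 8 h values lay below both KO 0 h values, with a change of -0.45 (SE 0.40, limma adjusted p = 0.34). Vapb, an ER protein of membrane contact sites, had 82.2 and 66.7 at 8 h and 65.7 and 84.6 at 0 h in KO, a change of -0.01 (SE 0.45, limma adjusted p = 0.988). Pofut1, which adds O-fucose to Notch receptors, had 38.9 and 21.4 at 8 h and 62.3 and 24.7 at 0 h in KO, a change of -0.43 (SE 0.57, limma adjusted p = 0.524). Atp6v0e, a subunit of the proton pump of lysosomes, had 35.1 and 30.2 at 8 h and 25.3 and 97.0 at 0 h in KO, a change of -0.60 (SE 0.59, limma adjusted p = 0.391). The groups of these 3 genes overlapped. Slc36a1, a lysosomal amino acid transporter, was called lower, with 12.1 and 2.52 at 8 h and 16.8 and 45.8 at 0 h in KO, a change of -2.09 (SE 0.75, limma adjusted p = 0.0263). Slc48a1, a haem transporter, was also called lower, with 28 and 30.2 at 8 h and 113 and 47.6 at 0 h in KO, a change of -1.30 (SE 0.53, limma adjusted p = 0.0446). Under TMM the changes were -0.91 (limma adjusted p = 0.441) for Slc36a1 and -0.15 (limma adjusted p = 0.857) for Slc48a1. Under TMM the KO changes were positive, 0.83 for Rcn3, 0.71 for Laptm4a, 1.13 for Vapb, 0.68 for Pofut1 and 0.52 for Atp6v0e, with limma adjusted p between 0.0859 and 0.596. The other secretory pathway members, none called in this comparison, were the disulfide isomerase family member Pdia5, the traffic proteins Ergic3 and Golt1b, the glycosyltransferases B3gnt1 and Gxylt2, and the intramembrane protease Sppl2a.

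Mitochondrial members were 11, of which 9 lay above the KO median of all genes, with 0 called higher and 1 called lower, a group median of -0.53 and members between -2.25 and 1.02. Uqcrq, a subunit of respiratory complex III, had 89.3 and 82.9 at 0 h, 105 and 89.1 at 4 h and 69.5 and 50.4 at 8 h in KO cells, against 29.0 and 45.2 at 0 h, 61.8 and 82.6 at 4 h and 45.4 and 54.7 at 8 h in control cells. Its KO groups overlapped at 0 h and 4 h but not at 0 h and 8 h. The KO change was -0.53 (SE 0.43, limma adjusted p = 0.302). Prdx3, a mitochondrial peroxiredoxin, had 24.9 and 12.6 at 8 h and 32.0 and 38.8 at 0 h in KO, a change of -0.95 (SE 0.66, limma adjusted p = 0.229). Mtx2, a protein of the outer membrane import machinery, was called lower, with 14.7 and 5.04 at 8 h and 64.0 and 31.7 at 0 h in KO, a change of -2.25 (SE 0.78). Its control mean was 8.33, so it too passed through KO. Cpox and Fech, enzymes of haem synthesis, had KO changes of -1.05 (SE 0.55, limma adjusted p = 0.112) and -0.36 (SE 0.64, limma adjusted p = 0.637), neither past the threshold. Under TMM the KO changes were positive, 0.62 for Uqcrq, 0.17 for Prdx3, 0.09 for Cpox and 0.72 for Fech, with limma adjusted p between 0.202 and 0.927. Lactb and the acyl-CoA dehydrogenase Acadsb had both KO 8 h values above both KO 0 h values, with changes of 0.59 (SE 0.72, limma adjusted p = 0.492) and 1.02 (SE 0.90). The control mean of Acadsb was 8.41, so it passed the minimum through KO, and it had 4 and 3 reads in KO at 0 h. The remaining mitochondrial members, none called in this comparison, were Hsd17b10, the ATP synthase assembly factor Atpaf2, the carrier Slc25a24 and Vwa8.

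Members of the actin cytoskeleton had a group median of -0.57, with 6 of 8 above the median of all genes. The KO change of Acta2 was -0.11 (SE 0.36, limma adjusted p = 0.805) on the deposited scale and 1.06 (limma adjusted p = 8.84e-04) under TMM, a change of direction with the scaling. Myo5a had 128 and 143 at 0 h, 112 and 110.4 at 4 h and 95.6 and 55.4 at 8 h in KO cells, against 26.3 and 19.4 at 0 h, 45.1 and 70.3 at 4 h and 41.6 and 48.3 at 8 h in control cells. Both KO 8 h values were below both KO 0 h values, and its change of -0.88 (SE 0.44, limma adjusted p = 0.097) was the lowest among the 21 members with a mean of at least 50. Mtpn, a regulator of actin capping, had 105 and 86.9 at 8 h and 149.9 and 93.4 at 0 h in KO, a change of -0.31 (SE 0.42, limma adjusted p = 0.534) with overlapping groups. Tmsb10, which sequesters actin monomers, was called lower, with 13.4 and 0 at 8 h and 33.7 and 44.1 at 0 h, a change of -3.38 (SE 1.00). In control Tmsb10 had 3.24 and 5.42 at 8 h and 2.63 and 3.23 at 0 h, and its control mean was 3.80, so that it passed the minimum through KO. Among calcium-dependent membrane binders, S100a11 had 158 and 123 at 0 h, 99.8 and 117 at 4 h and 82.9 and 105 at 8 h in KO cells, against 56.6 and 64.6 at 0 h, 66.2 and 109.7 at 4 h and 87.6 and 80.9 at 8 h in control cells. Anxa1 had 84.2 and 63.5 at 0 h, 105 and 99.8 at 4 h and 86.7 and 27.7 at 8 h in KO cells, against 15.8 and 32.3 at 0 h, 39.3 and 74.9 at 4 h and 48.1 and 46.5 at 8 h in control cells. The KO 8 h values of S100a11 lay below those at 0 h, the KO groups of Anxa1 overlapped, and the changes were -0.58 (SE 0.41, limma adjusted p = 0.23) for S100a11 and -0.56 (SE 0.50, limma adjusted p = 0.337) for Anxa1. Under TMM the KO changes were positive, 0.28 for Myo5a, 0.84 for Mtpn, 0.58 for S100a11 and 0.58 for Anxa1, with limma adjusted p between 0.152 and 0.671.

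The 16 cytosolic and nuclear signalling and metabolic proteins had the lowest group median in KO, -0.99, with 13 above the median of all genes. Ptgs2, whose mRNA is known for rapid decay through its AU-rich elements, had 37.1 and 35.3 at 0 h, 42.0 and 56.2 at 4 h and 39.5 and 21.4 at 8 h in KO cells, against 7.9 and 6.46 at 0 h, 23.3 and 32.4 at 4 h and 22.7 and 35.2 at 8 h in control cells. Its KO groups overlapped, and the KO change was -0.30 (SE 0.55, limma adjusted p = 0.646), and under TMM 0.81 (limma adjusted p = 0.258). Smyd2, a lysine methyltransferase, was called lower, with 32.5 and 8.82 at 8 h and 85.9 and 49.4 at 0 h in KO, a change of -1.87 (SE 0.58, limma adjusted p = 0.0113). Lats1 had 18.5 and 15.1 at 8 h and 37.1 and 49.4 at 0 h in KO, a change of -1.30 (SE 0.60, limma adjusted p = 0.0757). The centrosome and cilium group held 5 members, with a median of -0.22, and there Bbs2 was called lower, with 3.82 and 3.78 at 8 h and 30.3 and 47.6 at 0 h, a change of -3.02 (SE 0.92). Its control mean was 4.60, so it passed through KO, chiefly at 0 h. Dip2c, with no role given here, was the other member called lower, with 10.8 and 22.7 at 8 h and 60.6 and 35.3 at 0 h in KO, a change of -1.50 (SE 0.60, limma adjusted p = 0.0441). The KO 8 h values of Mtx2, Smyd2, Bbs2 and Dip2c all lay below those at 0 h. Under TMM the median of each of the 9 groups was positive, between 0.10 and 0.82.

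**Figure D4:**
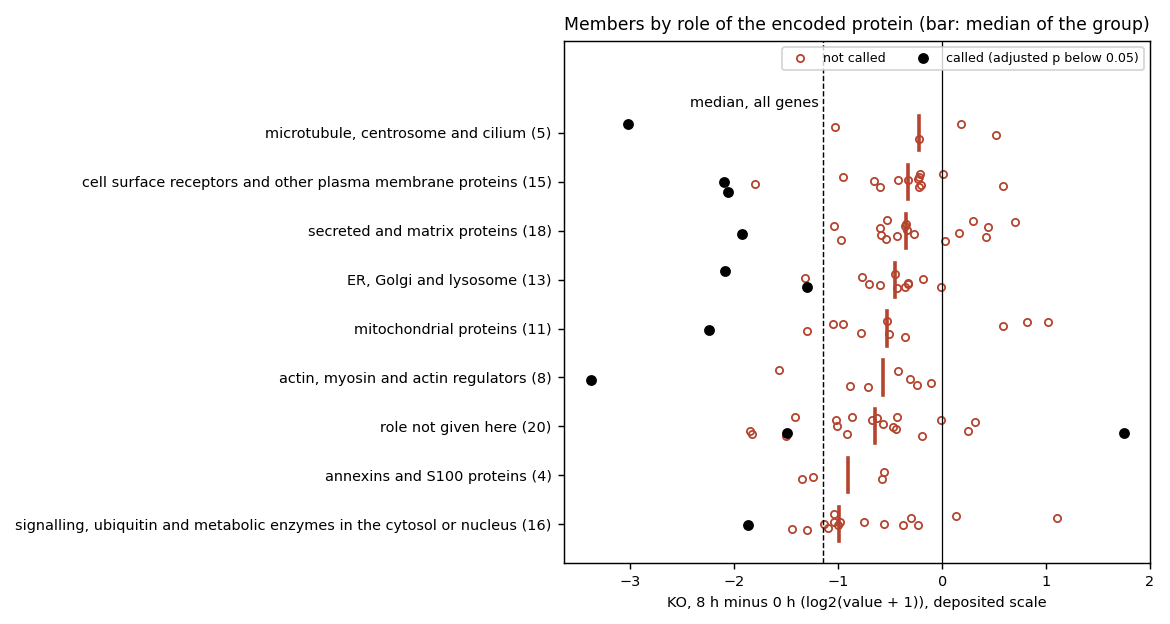
KO change from 0 h to 8 h of each member (log2(value + 1), deposited scale) by role of the encoded protein; bars are group medians, filled points are calls and the dashed line is the median of all genes. Every group median lies between the median of all genes, -1.15, and 0, and runs between -0.22 and -0.99, while under TMM all are positive.

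A430033K04Rik, a gene with no role given here, was the member called higher in KO. It had 23.6 and 12.3 at 0 h, 15.1 and 21.3 at 4 h and 33.1 and 107 at 8 h in KO cells, against 2.63 and 9.69 at 0 h, 5.09 and 10.8 at 4 h and 17.3 and 24.4 at 8 h in control cells. Both KO 8 h values lay above both KO 0 h values but stood far apart from each other. The change was 1.75 (SE 0.70, limma adjusted p = 0.0439). Without KO 8 h replicate 2, the higher of these, the change was 0.92 with a limma adjusted p = 0.418. The call was also lost without KO 0 h replicate 1 (limma adjusted p = 0.0653) or replicate 2 (0.236). It was lost by a small margin without either KO 4 h library, either control 8 h library or control 4 h replicate 2, where the limma adjusted p lay between 0.051 and 0.0553. The gene was at 27 and 22 reads in KO at 4 h.

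The median change of the members at 4 h, KO 4 h against KO 0 h, was -0.05, with members between -3.18 and 1.86, against -0.68 for all tested genes, with 0 members called higher beside 0.0288% of all tested genes. On the lower side 3 were called, beside 14.4%, namely Socs5, a suppressor of cytokine signalling, Gm960 and Mtx2. All 3 had a control mean below 10 (4.52 for Socs5, 5.58 for Gm960 and 8.33 for Mtx2) and passed the minimum through KO, where their 0 h values were the highest, so these calls are favoured by the choice of members. Among the 74 members with a control mean of at least 10 the median was 0.05 on the deposited scale and 0.67 under TMM. Under TMM scaling 5 were higher (Acta2, Prss23, Cd248, Cpe and Twsg1) beside 3.67% of all tested genes, 0 were lower beside 5.24%, and the member median was 0.59. For the same contrast edgeR with TMM called 6 higher, beside 4.14% of all tested genes, and DESeq2 8, beside 4.16%, while both called 0 lower, beside 6.36% with edgeR and 7.01% with DESeq2. The 3 lower calls on the deposited scale became 0 without either KO 0 h library, 1 without either KO 4 h library, control 4 h replicate 1 or control 8 h replicate 2, and 6 without either control 0 h library. By contrast 1 member was called higher without either KO 0 h library. Between KO 4 h and KO 8 h 0 members were called in either direction by limma, beside 0% of all tested genes higher and 0.0288% lower. At an unadjusted limma p below 0.05, 1 was higher and 6 were lower, with no share over all tested genes counted. The change was positive in 18 of 110 members, beside 19.4% of all tested genes. For this interval edgeR and DESeq2 called 0 members as well. Of all tested genes edgeR called 0% there, and DESeq2 0.0719% higher and 0.0575% lower. On the criterion of no overlap, both KO 4 h libraries exceeded both KO 0 h libraries in 19 members, beside 3.81% of all tested genes, and lay below both in 30, beside 62.8%. Under TMM these counts were 57 beside 29.5% and 10 beside 30.8%. The median over the interval between 4 h and 8 h was -0.49, close to that of all tested genes, -0.45. These intervals share libraries with KO 8 h against KO 0 h and are not independent of it.

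At 4 h, a time that entered the rule only through the mean over 12 libraries, KO was compared with control directly. The median difference was 0.76 for the members and 0.29 for all tested genes, and both KO libraries exceeded both control libraries in 70 of 110 members, beside 37.0% of all tested genes. The 36 members that passed through KO favour such a difference, and their median was 1.04. Among the 74 members with a control mean of at least 10 the median was 0.64, against 0.25 for all tested genes with such a mean, and under TMM 0.34 against -0.04. In 47 of the 74 both KO libraries were above, beside 35.1% of those genes. In 3 members (Ndrg1, Ythdc2 and Haus1) both KO libraries lay below both control libraries, beside 8.7% of all tested genes. Under TMM the KO libraries were above in 57 members, beside 24.5%, and below in 12, beside 24.7%. By limma 1 member was called higher, beside 0.748% of all tested genes, and 0 were called lower, beside 0%. At an unadjusted p below 0.05 limma gave 21 higher and 2 lower, with no share over all tested genes counted. The difference was positive in 92 of 110 members, beside 71.7% of all tested genes. DESeq2 called 3 higher, beside 1.38% of all tested genes, and 1 lower (Haus1), beside 0.705%. The called member was Scarf2, a scavenger receptor of the cell surface, with 87.6 and 115 at 0 h, 117 and 115 at 4 h and 95.0 and 78.1 at 8 h in KO cells, against 26.3 and 29.1 at 0 h, 37.1 and 28.6 at 4 h and 38.9 and 72.7 at 8 h in control cells. Its KO values stood above all control values at each time, and the difference at 4 h was 1.80 (SE 0.44, limma adjusted p = 0.0328). It fell short of the threshold without any 1 of the 4 libraries at 4 h, where the limma adjusted p lay between 0.219 and 0.533. The number of members called higher at 4 h was then 0, and it was 7 without either control 0 h library and 2 without either KO 8 h library. Acta2 differed by 1.09 (SE 0.36, limma adjusted p = 0.19) on the deposited scale and by 0.79 (limma adjusted p = 0.0428) under TMM. Under TMM 2 members were called higher (Acta2 and Scarf2), beside 0.734% of all tested genes, and 0 lower, beside 0.245%. At an unadjusted limma p below 0.05 under TMM, 15 were higher and 3 lower, with no share over all tested genes counted. The differences of Cpe and Grem1 were 1.55 (SE 0.41, limma adjusted p = 0.063) and 1.18 (SE 0.40, limma adjusted p = 0.213).

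Before the drug the members stood higher in KO. In 103 members both KO 0 h libraries exceeded both control 0 h libraries, beside 37.3% of all tested genes, and the median difference was 2.01 against 0.44. The rule favours genes with low control values at 0 h, so these figures are a description. In 100 members the KO 0 h mean was above the control 8 h mean, a count with no share over all tested genes. Over all tested genes the median was 0.44 for KO against control at 0 h. From 0 h to 8 h in control it was -1.33, and both medians go in the direction of this order. At 8 h the KO over control median was 0.35 for members and 0.63 for all tested genes. Summed over the members, KO libraries held 7693 and 6288 at 0 h, 6493 and 7121 at 4 h and 5226 and 4939 at 8 h, against 2002 and 2180 at 0 h, 3438 and 4463 at 4 h and 3245 and 3783 at 8 h in control. As a percent of the library total without the ribosomal RNA gene Rn45s, KO libraries held 0.615% and 0.507% at 0 h, 0.855% and 0.796% at 4 h and 0.863% and 0.655% at 8 h. Control libraries held 0.290% and 0.170% at 0 h, 0.551% and 0.564% at 4 h and 0.903% and 0.855% at 8 h. The share at 8 h was thus above that at 0 h in all libraries of both genotypes, with no overlap, while the summed value of the KO 8 h libraries was below that of both KO 0 h libraries.

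Several members are known from fibroblasts and other mesenchymal cells, so the fibroblast list was followed beside them. Its 27 genes made up 1.33% and 1.73% of the library total in KO at 0 h, 2.43% and 2.67% at 4 h and 1.72% and 2.64% at 8 h. In control they made up 0.918% and 1.02% at 0 h, 1.54% and 1.62% at 4 h and 2.48% and 2.52% at 8 h. The list held Col1a1 at 9415 and 7058 in KO and 3065 and 5123 in control at 0 h. Pdgfrb and Postn were listed at 0 in all 12 libraries, and Pdgfra, Fap, Dcn, Lum and Cav1 were at or near 0. Pdgfrb, Pdgfra, Dcn and Cav1 have 2 transcripts and Postn 3, while Fap, Lum and Col1a1 have 1. An effect of transcript number on these values was not tested. The 18 tested genes of the list had a median change in KO of -0.40 with 0 called higher and 1 lower. Under TMM their median was 0.77 with 10 called higher. The part of other cells in the members' values was not tested, and in bulk RNA fewer cells of a type and less RNA per cell cannot be told apart. By contrast the immediate early and short-lived transcripts had a median change of -3.31 in KO and -2.86 in control, and 20 of 22 were called lower in KO.

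**Figure D5:**
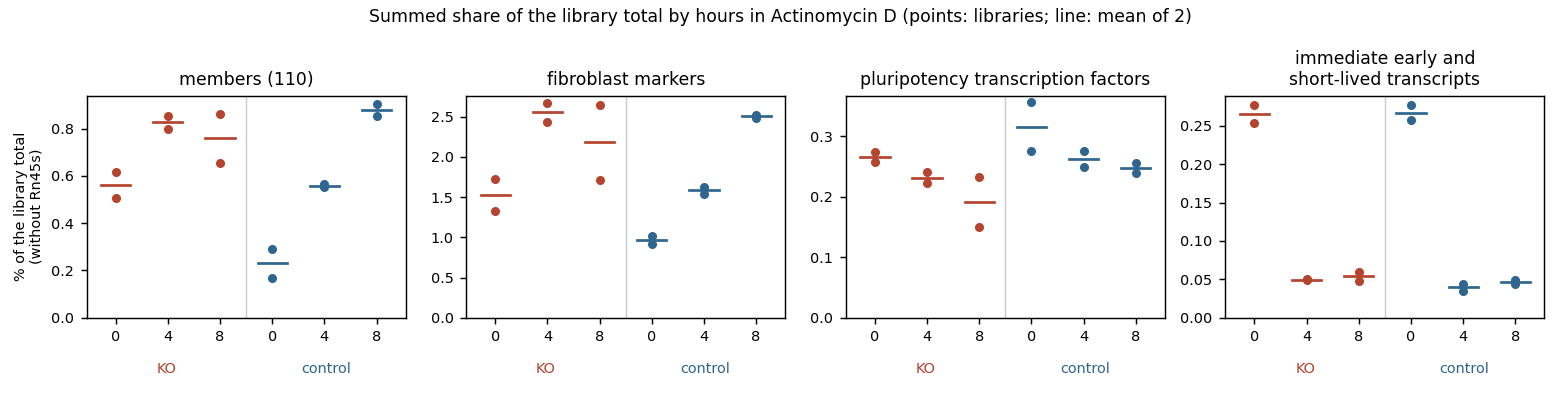
Summed percent of the library total (without Rn45s) of the 110 members and of 3 gene lists, in KO (left) and control (right) at 0, 4 and 8 h; points are libraries and lines the mean of 2. The members and the fibroblast markers take a larger share at 8 h than at 0 h, except that the lower KO 8 h fibroblast value (1.72%) lies just under the higher KO 0 h value (1.73%), and the short-lived transcripts a smaller share.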

How the data were processed

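Per the labels' protocols, total RNA was depleted of ribosomal RNA with the KAPA RiboErase kit. Per the submitters' processing notes, TopHat2 2.1.1, HTSeq 0.6.0, DESeq2 and the mm9 build were used, and their settings are not stated there. The table deposited by the authors holds a normalised signal, which is the read count of each RefSeq transcript over a factor of its library: 100% of values came to whole reads within 0.001 reads, so reads were recovered. Of 33896 rows, 978 repeats of a transcript were dropped and 32918 were summed by gene symbol.

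The main test was limma 3.58.1 (R 4.3.3; trend and robust options, two-sided, Benjamini-Hochberg over 6952 genes, calls at adjusted p below 0.05) on log2(value + 1) in 1 fit of 6 group means of the 12 libraries. Because of the added 1, log2 changes of low genes are understated. Alternatives were limma after TMM scaling, edgeR 4.0.16 and DESeq2 1.42.0 on the recovered reads, other pseudocounts and filters, and libraries left out. On simulated data for KO 8 h against KO 0 h over 6952 genes, 59.4% of genes changed 4-fold were called, as were 13% of those changed 2-fold. A gene not called may thus still differ. The simulation changed 200 genes drawn from all levels, without the broad fall of the real libraries. These rates therefore need not hold for the members or for the real contrast. Members, lists and tests were chosen with earlier results of these data known. Members were named by rule: the 10 highest means, members called higher in KO at 8 h against 0 h or called between KO and control at 4 h, the 6 lowest KO changes and the 6 highest control ratios among means of at least 50, list members, and genes at the edge of the rule. Others named, the members called lower in KO among them, were chosen after their values were seen. Symbols were matched to GENCODE M21 (GRCm38), another build, so no coordinates are given. The other 47 samples were not used here.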

Additional observations from a re-analysis of the deposited data

Results flagged for a closer look

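In 24 members that are described above with values, both KO 8 h values lay below both KO 0 h values on the deposited scale, while both control 8 h values exceeded both control 0 h values, as the selection requires. Over all members this held for 50 of 110, beside 78.0% of all tested genes with both KO 8 h values below both KO 0 h values. The difference between the genotypes was not tested, since the control libraries chose the members.

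Of the members named by rule, the KO change from 0 h to 8 h (log2) was -0.53 for Lgals1, -0.43 for Cd248, -0.36 for Grem1, -0.45 for Laptm4a, -0.58 for S100a11 and -0.54 for Htra1. It was -0.88 for Myo5a, -0.65 for Cspg4, -0.33 for Prelp and -0.95 for Prdx3. Under TMM scaling the changes of these 10 genes were positive, between 0.17 (Prdx3) and 0.81 (Prelp), so that the opposite direction was seen on the deposited scale alone. Of the members at the edge of the rule it was -1.30 for Lats1, -3.02 for Bbs2 and -1.85 for Gm960, and under TMM -0.17, -1.79 and -0.69.

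Of the members named after their values were seen, the KO change was -0.53 for Uqcrq and -1.05 for Cpox, both positive under TMM. The others had been called lower on the deposited scale, with -2.10 for Flt1, -2.06 for Prtg, -2.09 for Slc36a1, -1.30 for Slc48a1, -1.87 for Smyd2 and -1.50 for Dip2c. For Fjx1 it was -1.93, for Mtx2 -2.25 and for Tmsb10 -3.38, and these 3, like Bbs2 and Gm960, had a control mean below 10 and passed the minimum mean through KO. None of these was called lower under TMM.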

How the results depend on the processing

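For KO 8 h against KO 0 h, members called higher numbered 6 with limma after TMM scaling, 8 with edgeR and TMM and 10 with DESeq2, and 0 at a pseudocount of 0.5, with no filter on low values or at a mean of at least 50, against 1 as reported. Members called lower numbered 0 with limma after TMM scaling, 0 with edgeR and TMM and 0 with DESeq2, against 10. They numbered 17 at a pseudocount of 5, 4 with no filter and 0 at a mean of at least 50. Genes at large called lower numbered 3121 of 6952 at a pseudocount of 5, against 2818. With no filter they were 2072 of 23974, and at a mean of at least 50 they were 1287 of 2810. The member median turned positive, 0.57 with limma after TMM, 0.62 with edgeR and TMM and 0.60 with DESeq2, and Acta2 turned positive likewise (1.06, 1.07 and 1.04). Leaving out 1 library in turn gave 0 to 1 higher, 4 to 20 lower and a median between -0.78 and -0.42. For KO 4 h against KO 0 h, members higher numbered 5 with limma after TMM, 6 with edgeR and TMM, 8 with DESeq2 and 1 with only the 4 libraries compared, against 0, and 0 to 1 with a library left out. Members lower numbered 0 with each of these TMM, edgeR and DESeq2 settings, 1 at a pseudocount of 0.5, 5 at a pseudocount of 5, 0 at a mean of at least 50 and 9 with only the 4 libraries compared, against 3, and 0 to 6 with a library left out. Its median was 0.59 with limma after TMM and with edgeR and TMM, 0.58 with DESeq2 and 0.17 at a mean of at least 50. It ran from -0.28 to 0.10 with a library left out. Genes at large called lower here numbered 832 at a pseudocount of 0.5, 1408 at a pseudocount of 5 and 2521 with only the 4 libraries compared, against 998. At a mean of at least 50 they were 553 of 2810. With only the 4 libraries compared 11 were called higher, against 2.

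For KO 4 h against control 4 h, members higher numbered 2 with limma after TMM, 3 with edgeR and TMM, 2 with edgeR and the authors' factors, 3 with DESeq2, 0 with no filter, 2 at a mean of at least 50 and 11 with only the 4 libraries compared, against 1. With a library left out they numbered 0 to 7. Genes at large called higher numbered 72 with edgeR and TMM, 67 with the authors' factors and 278 with only the 4 libraries compared, against 52. With no filter they were 32 of 23974, and at a mean of at least 50 they were 35 of 2810. Members lower numbered 1 with DESeq2, against 0. The median was 0.46 with limma after TMM, 0.49 with edgeR and TMM, 0.50 with DESeq2, 0.63 at a pseudocount of 5 and 0.97 at a mean of at least 50, and between 0.56 and 0.87 with a library left out. The share of members with both KO 8 h above both KO 0 h was 38.2% under TMM, and 10.0% to 20.9% with 1 KO library left out, which loosens the criterion. The rule gave 1857 genes on TMM-scaled reads, 21 at a mean of at least 50 and 36 with an excess of at least 1.5 times. With 1 control library left out, an alternative chosen after seeing the data, it gave 156 to 591, the highest without control 0 h replicate 2, the shallowest library. Where no construction shows it, the cause was not tested.

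Replicate numbers did not pair the samples, since the correlations of same-numbered deviations ran from -0.07 to 0.12. With the replicate block, KO 4 h against control 4 h called 2 members higher, beside 107 of 6952 tested genes. KO 8 h against KO 0 h called 1 member higher, beside 7 of all tested genes, and 11 lower, beside 3277. Depth limits the set most at control 0 h, where 71 members had under 10 reads in both libraries.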
